A study of Mus musculus with 36 samples.

Results

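The small leucine-rich proteoglycans (SLRPs) are secreted matrix proteins, and 9 of their genes were examined here in mouse mesenchymal stem cells (MSCs) from 4 tissues. The genes were chosen as members of this family with earlier results of these data known, and 9 other genes of the family were not in the set. The set comprised Dcn, Bgn, Aspn, Fmod, Lum, Prelp, Omd, Ogn and Podn, which are 9 of the 24411 genes listed. The study compared the transcriptome (RNA-seq) and the accessible chromatin (ATAC-seq) of cultured MSCs to ask how tissue origin shapes these cells. The cells came from the femoral bone marrow (fBM-MSCs, 3 RNA-seq libraries), the vertebral bone marrow (vBM-MSCs, 2 libraries), the adipose tissue (A-MSCs, 3 libraries) and the lung (P-MSCs, 3 libraries) of untreated 8-week-old C57BL6/J mice. All cells were grown in the same medium on collagen-coated dishes for at most 3 passages. The marrow cells were obtained by crushing bone and the adipose and lung cells by collagenase digestion, so the way of isolation and marrow origin cannot be told apart. The tissues were taken from the same 3 mice, but no source ties a library to its mouse, and each library entered the tests as an independent sample.

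SLRPs share a core of leucine-rich repeats that binds collagen, and many of them carry chondroitin sulphate, dermatan sulphate or keratan sulphate chains. They control how collagen molecules assemble into fibrils and how thick these become, and several bind growth factors such as TGF-β and keep them in the matrix. Mesenchymal cells of bone, tendon, cartilage and skin are a main source, and mice that lack individual members have been reported with altered bone mass or fragile tendon and skin.

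The libraries held 19569650 to 40517739 expected counts, the number of reads that the quantification program assigns to a gene. All 9 genes were among the 12509 genes that passed the filter on low counts, a CPM (counts scaled to the library size) of 1 or more in 2 or more libraries. However, Lum had 2 such libraries only in vBM-MSCs, and Aspn, Omd and Podn only in marrow MSCs, so for these 4 genes a difference from the non-marrow MSCs was built into the filter. The stromal markers Itgb1 (CD29), Cd44 and Ly6a (Sca-1) were present in every library, at 466 to 1051, 229 to 720 and 42.3 to 805 TPM, and the leukocyte marker Ptprc (CD45) did not exceed 0.35 TPM. Replicate 3 of the fBM-MSCs had a summed level of 8 osteoblast markers of 4645 TPM, against 1232 and 1620 in the other fBM-MSCs, and thus stood apart. The 2 vBM-MSC libraries differed as well (764 TPM in replicate 1 and 1460 TPM in replicate 2), and with 2 libraries it cannot be told which of them is the unusual one. Replicate 3 of the fBM-MSCs and replicate 2 of the vBM-MSCs were also the highest of their tissue for several SLRPs, and the fit was repeated without this pair of libraries, an alternative that was chosen after seeing the data. In bulk RNA, fewer cells of a type and less RNA per cell cannot be told apart.

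The SLRPs differed widely among the 4 tissues. Bgn made up most SLRP transcripts everywhere, Fmod, Omd and Aspn were found mainly in marrow MSCs, and Prelp and Podn were highest in vBM-MSCs. In the edgeR quasi-likelihood test with Benjamini-Hochberg adjustment over all tested genes, 9 of 9 differed among the 4 tissues, where 60.6% of all tested genes did. Against the non-marrow MSCs, 8 of 9 were higher in marrow MSCs, compared with 24.8% of all tested genes, with a median log2 fold change of 4.37 against 0.03 over all genes. Of the 5 members that also reached the filter outside the marrow, 4 were higher. The levels below are TPM (reads corrected for transcript length and scaled to the same sum in every library), and the fold changes are log2 values of the fit on counts, with their SE. The SE was calculated back from the test, as the absolute fold change divided by the square root of the F statistic.

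**Figure D1:**
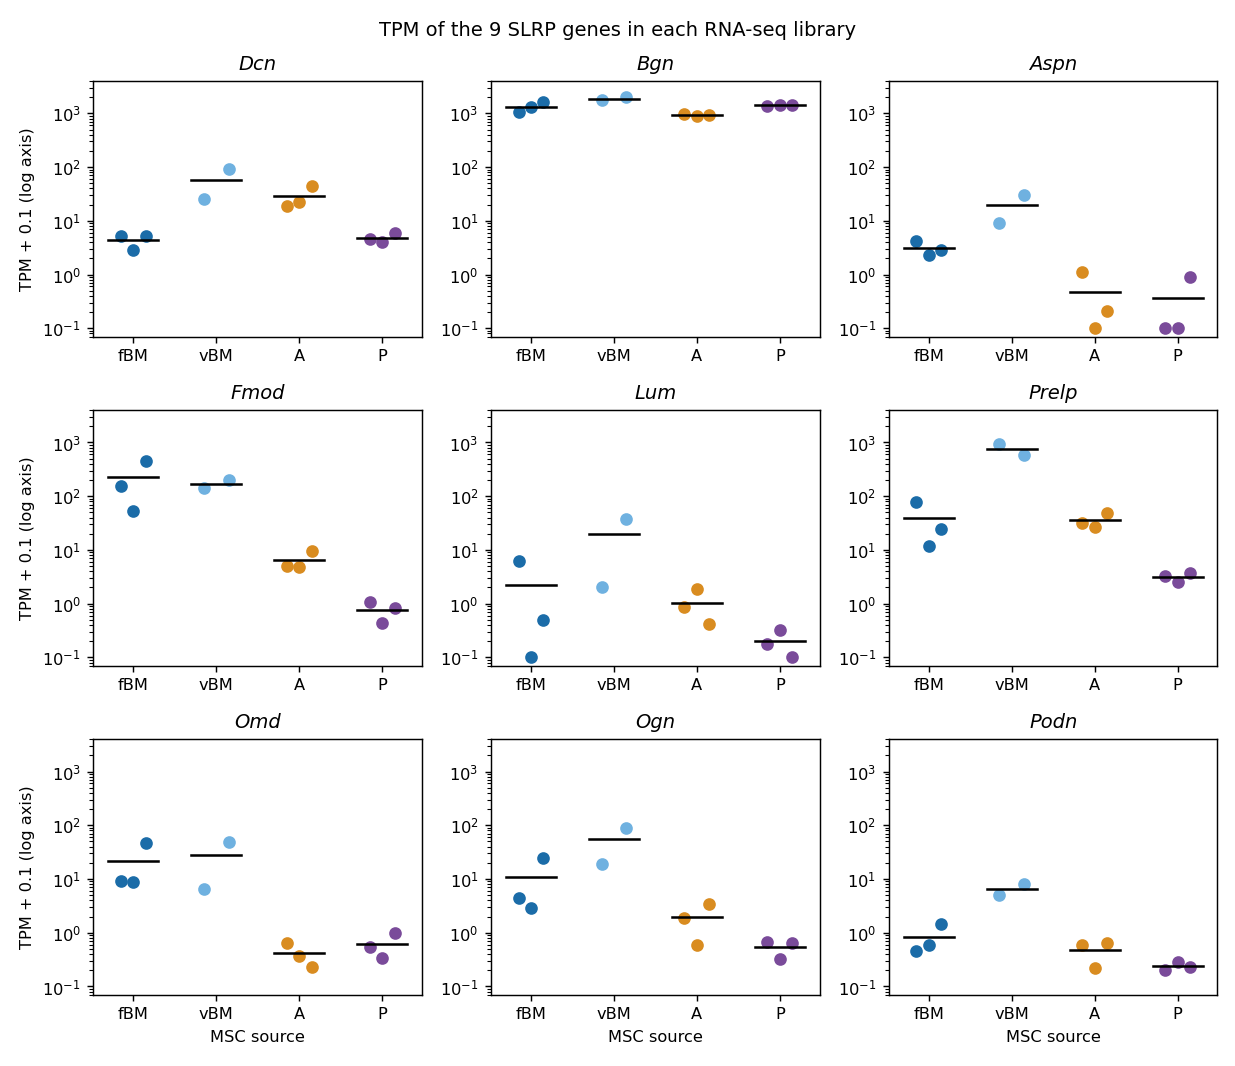
TPM of each of the 9 SLRP genes on a log10 axis of TPM + 0.1, with 1 point per RNA-seq library and a bar at the mean of each tissue. Bgn sits between 902 and 2022 TPM in all libraries, whereas Fmod, Omd and Aspn separate the marrow from the non-marrow libraries without overlap. Omd reached a CPM of 1 in no non-marrow library, and Aspn in 1 library of each non-marrow tissue. The share of all tested genes without such overlap was not counted.

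Among the class I members, Bgn encodes biglycan, a collagen-binding proteoglycan with chondroitin or dermatan sulphate chains that is abundant in bone. The gene lies on the X chromosome (GRCm38, 73483601 to 73495936, plus strand, 8 exons). Its level was 1061, 1308 and 1595 TPM in the fBM-MSCs, 1754 and 2022 TPM in the vBM-MSCs, 991, 902 and 927 TPM in the A-MSCs, and 1376, 1458 and 1416 TPM in the P-MSCs. It was thus high in every library and ranked between 72 and 186 among all genes by mean TPM in the 4 tissues, and the fBM-MSCs overlapped with the P-MSCs. The fold change of marrow over non-marrow was small, 0.46 ± 0.09 (adjusted p = 0.00186). In the order of levels, vBM-MSCs were above P-MSCs by 0.49 ± 0.14 (adjusted p = 0.0149), P-MSCs and fBM-MSCs did not differ beyond their spread, and fBM-MSCs were above A-MSCs by 0.42 ± 0.12 (adjusted p = 0.0196). This last call was lost without replicate 2 or replicate 3 of the A-MSCs (adjusted p = 0.0726 and 0.0555).

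Dcn encodes decorin, which binds collagen fibrils and TGF-β and carries a chondroitin or dermatan sulphate chain (chromosome 10, 97479500 to 97518163, plus strand, 8 exons). Its level was 5.11, 2.78 and 5.13 TPM in the fBM-MSCs, 25.8 and 90.4 TPM in the vBM-MSCs, 18.9, 22.5 and 44.1 TPM in the A-MSCs, and 4.56, 3.86 and 5.73 TPM in the P-MSCs. The vBM-MSCs and A-MSCs were high and overlapped each other, the fBM-MSCs and P-MSCs were low and overlapped each other, and these pairs of tissues did not overlap. Dcn was therefore the member not called between marrow and non-marrow MSCs (0.43 ± 0.32, adjusted p = 0.294), and this value was below 0 without replicate 2 of the vBM-MSCs. Within each of these groups it differed, lower in fBM-MSCs than in vBM-MSCs by a log2 fold change of -3.63 ± 0.49 (adjusted p = 0.000959) and higher in A-MSCs than in P-MSCs by 2.79 ± 0.45 (adjusted p = 0.0011). Without replicate 2 of the vBM-MSCs, the former was -2.63.

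Aspn encodes asporin, a class I member without a glycosaminoglycan chain that binds collagen and TGF-β (chromosome 13, 49544443 to 49567565, plus strand, 8 exons). Its level was 4.12, 2.26 and 2.81 TPM in the fBM-MSCs, 8.92 and 30.3 TPM in the vBM-MSCs, 1.01, 0 and 0.11 TPM in the A-MSCs, and 0, 0 and 0.82 TPM in the P-MSCs. All 5 marrow libraries were above all 6 non-marrow libraries, 3 of which had no expected count. The difference was 4.62 ± 0.97 (adjusted p = 0.00225), and it rested on few reads outside the marrow, where replicate 1 of the A-MSCs had 46 and replicate 3 of the P-MSCs 42 expected counts. It was 5.95 without the former and 7.93 without the latter. In the order of levels, vBM-MSCs did not overlap with fBM-MSCs (2.59 ± 1.24 for vBM-MSCs over fBM-MSCs, adjusted p = 0.198), nor fBM-MSCs with A-MSCs (3.03 ± 1.29, adjusted p = 0.0814), but edgeR called neither gap, whereas limma on log2(TPM + 1) called both (adjusted p = 0.00967 and 0.00866). A-MSCs and P-MSCs overlapped.

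The class II members often carry keratan sulphate. Fmod encodes fibromodulin, which binds collagen I and steers its cross-linking in tendon and bone (chromosome 1, 134037254 to 134048280, plus strand, 3 exons). Its level was 156, 52.8 and 460.3 TPM in the fBM-MSCs, 143 and 196 TPM in the vBM-MSCs, 4.95, 4.75 and 9.40 TPM in the A-MSCs, and 0.96, 0.33 and 0.73 TPM in the P-MSCs. Every marrow library was above every A-MSC library, and every A-MSC library above every P-MSC library. The marrow difference of 6.54 ± 0.55 (adjusted p = 3.3e-06) had the lowest adjusted p of the 9 genes, and it was 5.92 without replicate 3 of the fBM-MSCs and replicate 2 of the vBM-MSCs. A-MSCs were above P-MSCs by 3.41 ± 0.73 (adjusted p = 0.00514). The 2 marrow tissues overlapped and were not called different (0.46 ± 0.66, adjusted p = 0.7), while the fBM-MSCs alone spanned 8.71-fold from the lowest to the highest library.

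Prelp encodes a proteoglycan with a basic, proline- and arginine-rich end, which binds heparan sulphate and collagen and anchors basement membranes to the tissue below (chromosome 1, 133910304 to 133921401, minus strand, 3 exons). Its level was 79.3, 11.8 and 24.7 TPM in the fBM-MSCs, 938 and 576 TPM in the vBM-MSCs, 31.2, 26.3 and 48.6 TPM in the A-MSCs, and 3.24, 2.41 and 3.63 TPM in the P-MSCs. The vBM-MSCs were far above all other libraries, the P-MSCs were below all others, and the fBM-MSCs and A-MSCs overlapped. By mean TPM, Prelp ranked 233 among all genes in vBM-MSCs, against 2842 and 2975 in fBM-MSCs and A-MSCs and 8847 in P-MSCs. It was lower in fBM-MSCs than in vBM-MSCs by a log2 fold change of -4.25 ± 0.65 (adjusted p = 0.0019), did not differ detectably between fBM-MSCs and A-MSCs (0.08 ± 0.55, adjusted p = 0.929), and was higher in A-MSCs than in P-MSCs by 3.71 ± 0.62 (adjusted p = 0.00129). The mean marrow difference of 4.06 ± 0.45 (adjusted p = 2.61e-05) therefore joined unlike tissues.

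Omd encodes osteomodulin (osteoadherin), a keratan sulphate proteoglycan of mineralised bone matrix (chromosome 13, 49582462 to 49592612, plus strand, 3 or 4 exons by transcript). Its level was 9.18, 8.58 and 46.3 TPM in the fBM-MSCs, 6.47 and 48.3 TPM in the vBM-MSCs, 0.55, 0.27 and 0.13 TPM in the A-MSCs, and 0.44, 0.24 and 0.90 TPM in the P-MSCs. Marrow and non-marrow libraries did not overlap, and the 2 highest libraries were replicate 3 of the fBM-MSCs and replicate 2 of the vBM-MSCs, those with the highest osteoblast marker sums of their tissues. The difference was 5.87 ± 0.70 (adjusted p = 4.35e-05), and 4.27 without these 2 libraries. The 2 marrow tissues were not called different (-0.23 ± 0.82, adjusted p = 0.89), nor were A-MSCs and P-MSCs (-0.59 ± 1.04, adjusted p = 0.7).

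Lum encodes lumican, which regulates fibril spacing in cornea and skin (chromosome 10, 97565501 to 97572703, plus strand, 3 exons). Its level was 5.99, 0 and 0.40 TPM in the fBM-MSCs, 1.96 and 37.9 TPM in the vBM-MSCs, 0.75, 1.74 and 0.32 TPM in the A-MSCs, and 0.08, 0.23 and 0 TPM in the P-MSCs. A single library, replicate 2 of the vBM-MSCs with 1691 expected counts, was high, and marrow and non-marrow libraries overlapped. The marrow difference of 4.37 ± 1.2 (adjusted p = 0.00937) was not called without that library (2.80), and without replicate 1 of the fBM-MSCs it was 2.70. With limma, the difference was 1.75 on log2(TPM + 1) and 2.62 on log2(TPM + 0.1), and the latter was not called (adjusted p = 0.0516). Without replicate 2 of the vBM-MSCs, Lum was also not called among the 4 tissues (adjusted p = 0.173).

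Ogn, the class III member, encodes osteoglycin (mimecan), a matrix protein of bone, cornea and vessels (chromosome 13, 49608015 to 49624501, plus strand, 7 exons). Its level was 4.41, 2.76 and 24.6 TPM in the fBM-MSCs, 19.2 and 89.8 TPM in the vBM-MSCs, 1.81, 0.49 and 3.37 TPM in the A-MSCs, and 0.58, 0.22 and 0.55 TPM in the P-MSCs. As for Omd, replicate 3 of the fBM-MSCs and replicate 2 of the vBM-MSCs were the highest, and the lowest marrow library (2.76 TPM) was below the highest A-MSC library (3.37 TPM). The marrow difference was 4.67 ± 0.70 (adjusted p = 0.000228), and 3.21 without these 2 libraries. The fBM-MSCs exceeded the A-MSCs by 2.43 ± 0.88 (adjusted p = 0.0444), a call that was lost without replicate 3 of the fBM-MSCs (adjusted p = 0.376), among other libraries.

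Podn, the class V member, encodes podocan, a collagen-binding protein first described in the kidney glomerulus (chromosome 4, 108014793 to 108031954, minus strand, 13 exons). Its level was 0.36, 0.49 and 1.34 TPM in the fBM-MSCs, 4.96 and 8.07 TPM in the vBM-MSCs, 0.49, 0.12 and 0.55 TPM in the A-MSCs, and 0.10, 0.19 and 0.13 TPM in the P-MSCs. The vBM-MSCs were above all other libraries, and the fBM-MSCs and A-MSCs overlapped at a level near 1 TPM or below. It was lower in fBM-MSCs than in vBM-MSCs by a log2 fold change of -3.08 ± 0.66 (adjusted p = 0.0124), and marrow exceeded non-marrow by 3.24 ± 0.48 (adjusted p = 0.000193). The steps from fBM-MSCs to A-MSCs (0.85 ± 0.61, adjusted p = 0.292) and from A-MSCs to P-MSCs (1.71 ± 0.66, adjusted p = 0.0729) were not called by edgeR. The latter was called by DESeq2 (adjusted p = 0.0357) and by edgeR without replicate 3 of the fBM-MSCs (adjusted p = 0.037) or replicate 2 of the A-MSCs (adjusted p = 0.0253).

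Osteoblast markers moved with these genes between marrow and non-marrow MSCs, but not between the marrow tissues. Of 8 osteoblast markers, 7 were higher in marrow MSCs, where 24.8% of all tested genes were higher, and none was lower. Ibsp, Dmp1, Bglap, Alpl and Sp7 did not exceed 0.90 TPM outside the marrow and passed the filter through marrow libraries, so their difference was built into the filter. The summed level of the 8 markers was 1232 to 4645 TPM in fBM-MSCs, 764 to 1460 TPM in vBM-MSCs, 542 to 778 TPM in A-MSCs and 504 to 568 TPM in P-MSCs. In fBM-MSCs against vBM-MSCs, by contrast, 3 of the 8 markers were called and all were higher, while 4 SLRPs were called and all were lower, where 655 of the 12509 tested genes were higher and 946 lower. Most of the sum outside the marrow was Col1a1, while Bglap (osteocalcin) was at 0 in every P-MSC library and at most 0.90 TPM in A-MSCs, and Sp7 was at 0 in every A-MSC library. Ibsp, bone sialoprotein, had 505 ± 439 TPM (SD, n = 3) in fBM-MSCs and 169 ± 215 TPM (SD, n = 2) in vBM-MSCs, and the osteocyte gene Dmp1 had 98.7 ± 59.4 and 8.99 ± 11.6 TPM. The chondrocyte list moved as well (15.9 to 99.2 TPM in fBM-MSCs, 126 and 186 TPM in vBM-MSCs, at most 11.4 TPM elsewhere), to which Comp gave 7.65 to 88.1 TPM in fBM-MSCs and 97.6 and 109 TPM in vBM-MSCs. The cartilage collagen gene Col2a1 had 4.92 and 75.1 TPM in vBM-MSCs, 0.43 to 4.41 TPM in fBM-MSCs, 0 in A-MSCs and at most 4.21 TPM in P-MSCs, and the cartilage proteoglycan gene Acan did not exceed 0.14 TPM in any library. The tendon cell list summed to 39.0 to 55.2 TPM in fBM-MSCs, 73.9 and 137 TPM in vBM-MSCs and 19.5 to 35.6 TPM elsewhere, and Egr1 made up 72.1 and 128 TPM of it in vBM-MSCs. The tendon factor genes Scx (13.1 to 30.4 TPM in fBM-MSCs, 1.39 and 5.69 TPM in vBM-MSCs, at most 1.87 TPM elsewhere) and Mkx (3.94 to 4.30 TPM, 0.25 and 1.51 TPM, and at most 0.96 TPM) were highest in fBM-MSCs, and Kera was at 0 in every library. The part of such cells in the SLRP levels was not tested.

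**Figure D2:**
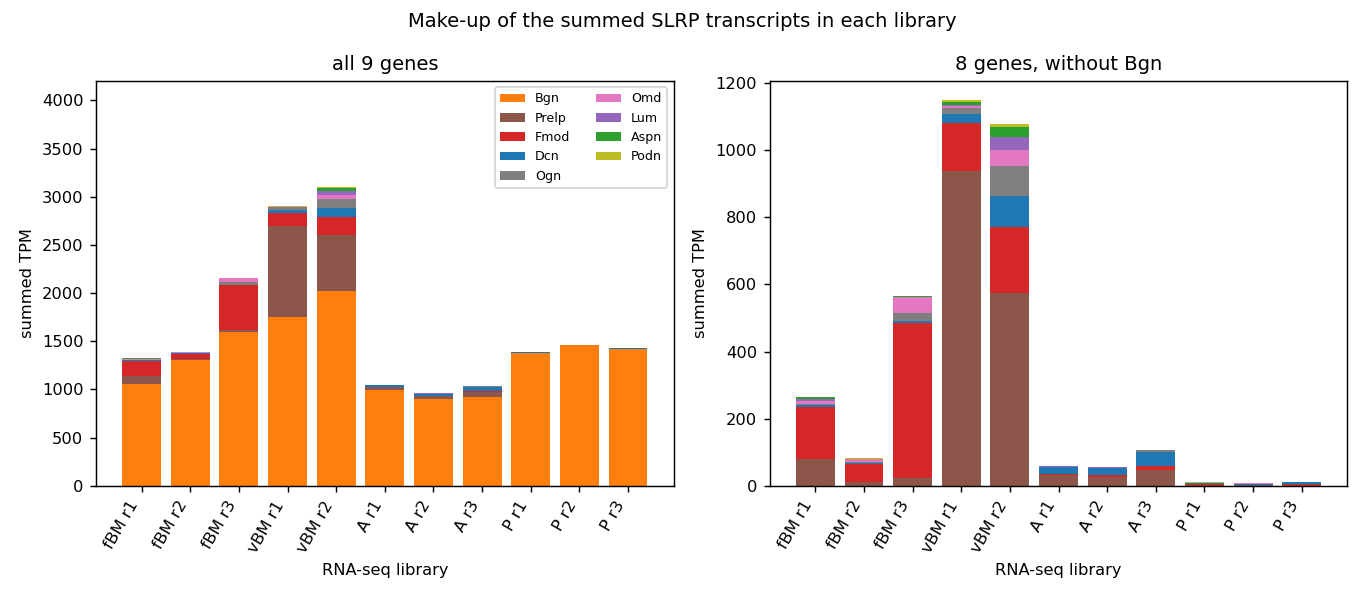
Stacked bars of the summed TPM of the 9 SLRP genes (left) and of the 8 genes other than Bgn (right) in each of the 11 RNA-seq libraries, on linear axes from 0, with a colour for each gene and r for replicate. Bgn fills nearly the whole bar in P-MSCs, and the bars of the vBM-MSCs are the tallest, with a large Prelp portion.

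Summed over the 9 genes, the SLRP level was 1325, 1390 and 2161 TPM in the fBM-MSCs, 2903 and 3098 TPM in the vBM-MSCs, 1050.2, 958 and 1033 TPM in the A-MSCs, and 1386, 1465 and 1428 TPM in the P-MSCs. The vBM-MSCs were above all other libraries and the A-MSCs below all others, and the fBM-MSCs spanned the P-MSCs. The ratio of marrow to non-marrow was 1.78-fold, or 0.83 on the log2 scale, where the pooled SD within tissues was 0.202. Bgn took 99.1% to 99.5% of the sum in P-MSCs, 89.7% to 94.3% in A-MSCs, 73.8% to 94.1% in fBM-MSCs and 60.4% to 65.3% in vBM-MSCs. Without Bgn, the remaining 8 genes summed to 7.50 to 12.5 TPM in P-MSCs, 56.2 to 107 TPM in A-MSCs, 81.5 to 566 TPM in fBM-MSCs and 1077 to 1148 TPM in vBM-MSCs. The next most abundant member was Prelp in vBM-MSCs, with 18.6% and 32.3% of the sum, and Fmod in fBM-MSCs, with 3.80% to 21.3%.

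The same genes were then compared between pairs of tissues, and since these comparisons share libraries, their values stand side by side only. In fBM-MSCs, 4 members were lower than in vBM-MSCs (Prelp, Dcn, Podn and Bgn), where 7.56% of all tested genes were lower, and none was higher. Ogn (-2.24 ± 0.89, adjusted p = 0.124) was also called lower without replicate 3 of the fBM-MSCs (adjusted p = 0.0112) and with the replicate block (adjusted p = 0.0269). Lum (-3.11 ± 1.5, adjusted p = 0.201) was called lower without replicate 1 of the fBM-MSCs (adjusted p = 0.026). The call of Bgn (-0.47 ± 0.14, adjusted p = 0.0455) was lost without any single library other than replicate 3 of the fBM-MSCs, with adjusted p = 0.0615 to 0.146. Between A-MSCs and P-MSCs, 4 members differed, where 30.9% of all tested genes did. Prelp, Fmod and Dcn were higher in A-MSCs, and Bgn was lower (-0.40 ± 0.12, adjusted p = 0.032), a call lost without any single library of these 2 tissues (adjusted p = 0.0614 to 0.104). Ogn (2.24 ± 0.99, adjusted p = 0.11) was called higher in A-MSCs in a fit of these 2 tissues alone (adjusted p = 0.0189) and without replicate 3 of the fBM-MSCs (adjusted p = 0.0348).

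**Figure D3:**
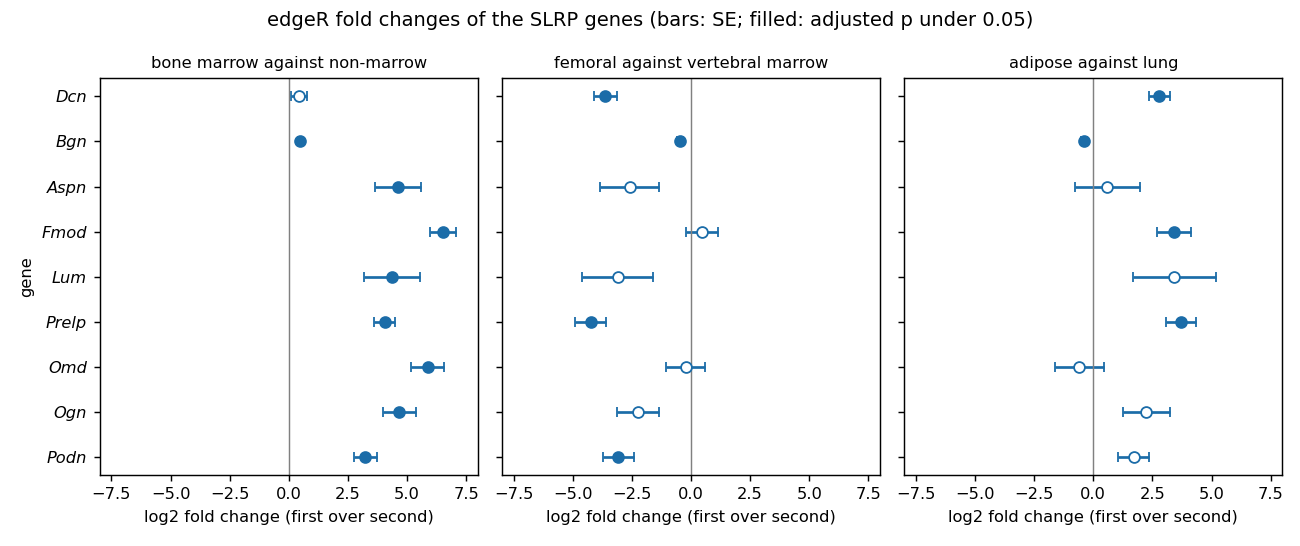
Log2 fold change of each SLRP gene in marrow against non-marrow MSCs, fBM-MSCs against vBM-MSCs and A-MSCs against P-MSCs, from the edgeR fit, with bars of 1 SE and filled points where the adjusted p was under 0.05. Bgn stays within 1 log2 unit of 0 in the comparisons drawn, while Prelp and Dcn differ both within the marrow and within the non-marrow tissues.

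Each marrow tissue was also compared with each non-marrow tissue, without a test of whether these comparisons differ from each other. Compared with A-MSCs, the fBM-MSCs differed in 5 members, where 40.9% of all tested genes differed: Fmod (5.06 ± 0.70), Omd (6.05 ± 1.0), Ogn and Bgn were higher, and Dcn was lower (-2.78 ± 0.46, adjusted p = 0.000641). Compared with P-MSCs, the fBM-MSCs were higher in 6 members, where 24.7% of all tested genes were higher: Fmod (8.47 ± 0.85), Omd (5.45 ± 0.95), Ogn (4.67 ± 1.01), Prelp (3.78 ± 0.62), Aspn (3.62 ± 1.32) and Podn (2.55 ± 0.67). Lum (4.52 ± 1.76, adjusted p = 0.0529) was called as well without replicate 2 or replicate 3 of the fBM-MSCs (adjusted p = 0.0193 and 0.0345). It was also called with no filter on low counts (adjusted p = 0.0299) and with a CPM of at least 5 (adjusted p = 0.0489). The call of Aspn was lost without any of 5 libraries, with adjusted p = 0.0548 to 0.109. The call of Podn was lost without replicate 3 of the fBM-MSCs and replicate 2 of the vBM-MSCs together (adjusted p = 0.0614) and with limma on log2(TPM + 1) (adjusted p = 0.0628). The vBM-MSCs were higher than A-MSCs in 7 members, all but Dcn and Lum, where 13.2% of all tested genes were higher. Lum was called as well without any of 4 single libraries (adjusted p = 0.0249 to 0.0483), with no filter on low counts (adjusted p = 0.0393) and in a fit of these 2 tissues alone (adjusted p = 0.0233). Dcn was called without replicate 1 of the vBM-MSCs (1.44, adjusted p = 0.04). They were higher than P-MSCs in 9 members, where 21.0% of all tested genes were higher, with Prelp (8.04 ± 0.76) and Fmod (8.01 ± 0.85) leading. Without replicate 2 of the vBM-MSCs, the calls of Lum against P-MSCs (adjusted p = 0.109) and of Aspn against A-MSCs (adjusted p = 0.0927) were lost. The latter was also lost without replicate 3 of the A-MSCs (adjusted p = 0.0524). Without both replicate 2 of the vBM-MSCs and replicate 3 of the fBM-MSCs, the edgeR calls lost were Lum in marrow against non-marrow (adjusted p = 0.0525), among the 4 tissues (0.0991) and in vBM-MSCs against P-MSCs (0.0737), Aspn in fBM-MSCs against P-MSCs (0.0651) and in vBM-MSCs against A-MSCs (0.0675), and Ogn in fBM-MSCs against A-MSCs (0.30), besides that of Podn.

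Over the 11 libraries, the members fell into unlike profiles. Pearson's r on log2(TPM + 1) was 0.919 for Ogn and Podn, 0.905 for Fmod and Omd, and 0.902 for Aspn and Ogn, against 0.036 for Dcn and Bgn and 0.104 for Dcn and Omd. These r values describe 11 libraries that share tissues and, partly, mice. The chromosomal neighbours were not all alike. Aspn, Omd and Ogn lie next to each other on chromosome 13, with gaps of 14.9 and 15.4 kb, and had r of 0.844 to 0.902, while Dcn and Lum, 47.3 kb apart on chromosome 10, had 0.628 and Prelp and Fmod, 116 kb apart on chromosome 1, had 0.724. The gene Cenpp spans Aspn, Omd and Ogn on the opposite strand, but shares 0 exonic bases with them in the RefSeq annotation.

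The genes with the most similar profile were also sought among all tested genes, again over the 11 libraries. For Omd these were Ndnf (r = 0.998) and the membrane protease gene Mme (r = 0.993), and for Fmod the extracellular superoxide dismutase gene Sod3 (r = 0.989) and Ggcx (r = 0.984), which encodes the vitamin K-dependent carboxylase. For Prelp they were Eya2 (r = 0.984) and Cdo1 (r = 0.967), and for Podn Kng2 (r = 0.964) and Pax9 (r = 0.963). For Aspn they were C1qtnf5 (r = 0.959) and Rab5a (r = 0.958), for Ogn Atp2b4 (r = 0.954) and the collagen gene Col10a1 (r = 0.951), and for Dcn the complement inhibitor gene Serping1 (r = 0.954) and the Wnt antagonist gene Sfrp1 (r = 0.941). For Bgn they were Auts2 and Col11a1 (both r = 0.946), and for Lum Fzd8 (r = 0.913) and Ecm2 (r = 0.904), itself a relative of the SLRPs. Several of these genes were near the floor, with mean levels of at most 0.665 TPM for Auts2, 0.71 TPM for Fzd8, 0.935 TPM for Ecm2 and 1.14 TPM for Atp2b4 in any tissue. Each r was picked as the highest over all tested genes, so high values are partly due to the selection.

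The ATAC-seq peak lists, with 1 list per tissue made from pooled reads, were used to describe open chromatin at the genes. With 1 list per tissue there is no replicate and no test, and a difference between lists compares these lists only. The lists cover chromosomes 1 to 19, so Bgn on X is not described. At a −log10 q of at least 7, the lists held 59536 to 71345 summits, and within 10 kb of the other 8 genes the fBM-MSC and A-MSC lists had 10 summits each, the vBM-MSC list 14 and the P-MSC list 9. Few lay at promoters. A summit within 1 kb of a start site was found for 3 of these 8 genes in vBM-MSCs (Prelp, Omd and Ogn), 2 in A-MSCs (Omd and Ogn), and 1 each in the fBM-MSCs (Ogn) and P-MSCs (Omd), whereas 50.7% to 52.6% of 24963 curated genes had such a summit.

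Sites that passed the threshold in the vBM-MSC list alone were found mainly at Prelp and Podn, and the share of such sites over all genes was not counted. Prelp and Podn are 2 of the 4 genes called lower in fBM-MSCs than in vBM-MSCs. Among the others, Bgn is not covered by the lists, and the only site of Dcn was weaker in vBM-MSCs (8.09) than in fBM-MSCs (13.2). At Prelp, the vBM-MSC list alone had summits at the promoter (-107 bases from the start site, fold enrichment 7.36) and in introns (+3200, 6.99, and +5190, 11.04), and a summit at +12431, downstream of the gene, had 12.5 in vBM-MSCs and 5.52 in A-MSCs. The P-MSC list had a summit of 4.41 at +5190, below the q threshold, and at +12431 the fBM-MSC and P-MSC lists had 4.78 and 4.05, also below it. A site at +12145 was found in the A-MSC list (5.52) and, below the threshold, in the fBM-MSC list (3.68), but not in the vBM-MSC list. At Podn, the vBM-MSC list alone had summits at -1243 (9.20), +11153 (5.52) and +11534 (5.89), and the A-MSC list had 3.68 at -1243, below the threshold. The windows of 201 bases around 4 of these summits are shown because their fold enrichment was highest in the vBM-MSC list, as was the RNA of both genes (GRCm38, minus strand, 5′ to 3′, capitals mark 21 bases centred on the summit).
Prelp promoter, summit at -107 (chr1:133921408-133921608): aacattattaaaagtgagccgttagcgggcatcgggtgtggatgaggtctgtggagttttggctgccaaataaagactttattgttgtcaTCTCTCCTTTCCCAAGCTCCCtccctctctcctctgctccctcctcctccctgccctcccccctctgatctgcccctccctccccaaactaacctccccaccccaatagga
Prelp intron, summit at +5190 (chr1:133916111-133916311): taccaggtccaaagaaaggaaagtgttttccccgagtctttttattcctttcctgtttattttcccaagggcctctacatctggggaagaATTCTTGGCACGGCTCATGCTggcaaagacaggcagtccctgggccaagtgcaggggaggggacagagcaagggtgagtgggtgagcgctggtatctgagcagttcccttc
Prelp downstream, summit at +12431 (chr1:133908870-133909070): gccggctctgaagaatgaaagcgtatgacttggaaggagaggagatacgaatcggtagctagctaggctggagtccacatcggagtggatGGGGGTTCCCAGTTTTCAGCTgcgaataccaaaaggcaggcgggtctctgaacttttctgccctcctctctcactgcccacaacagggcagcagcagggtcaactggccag
Podn upstream, summit at -1243 (chr4:108033097-108033297): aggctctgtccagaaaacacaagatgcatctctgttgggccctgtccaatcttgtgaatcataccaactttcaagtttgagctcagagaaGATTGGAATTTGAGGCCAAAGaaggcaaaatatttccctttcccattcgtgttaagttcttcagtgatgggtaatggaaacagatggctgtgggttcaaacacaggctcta

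At Fmod, Dcn, Aspn and Omd, the strongest sites were shared by tissues of high and of low RNA. The intronic summit of Fmod at +2273 had a fold enrichment of 14.7 for the fBM-MSCs, 10.3 for the vBM-MSCs, 9.93 for the A-MSCs and 6.99 for the P-MSCs. The RNA of Fmod was likewise lowest in P-MSCs and next lowest in A-MSCs, and was not called different between the marrow tissues. By contrast, the intronic summit of Aspn at +5406 had 14.0 in the P-MSC list, 11.4 in the fBM-MSC list and 8.09 in the A-MSC list, and only 5.15, below the q threshold, in the vBM-MSC list, where the RNA was highest. The summit of Omd at +1604 had 9.56, 9.56 and 14.4 in fBM-MSCs, A-MSCs and P-MSCs and 4.42, below the threshold, in vBM-MSCs, while its RNA was not called different between the marrow tissues. Aspn also had a site at -5539 in the vBM-MSC list alone (6.25), and a site at +1520 with 5.52 in the fBM-MSC list and 5.15, below the threshold, in the vBM-MSC list. Omd had a site at -4458 in the P-MSC list alone (5.52). Another shared site of Aspn, at +12687, was strongest in the A-MSC and P-MSC lists (15.8 and 11.8, against 8.46 in both marrow lists), and that of Omd, at +3812, had 6.99 to 10.3 in the 4 lists. The promoter of Omd, at -680, had 7.73, 6.99 and 6.62 in vBM-MSCs, A-MSCs and P-MSCs, and 4.05, below the threshold, in fBM-MSCs. The promoter of Ogn, at -92, had 5.52, 6.99 and 6.62 in fBM-MSCs, vBM-MSCs and A-MSCs, and 4.41, below the threshold, in P-MSCs. The strongest site of Ogn was another one, in an exon at +15400, which passed the threshold in the P-MSC list alone (7.72, against 5.15 in fBM-MSCs and 3.31 in A-MSCs, below it), where the RNA was lowest, and an exonic site at +16280 passed in the fBM-MSC list alone (6.25). The summit of Dcn at +34342 from its nearest start site had 14.0 in the A-MSC list, 13.2 in the fBM-MSC list, 8.09 in the vBM-MSC list and 6.99 in the P-MSC list, and so was high in fBM-MSCs, where its RNA was low, and Lum had a summit of 8.09 at -9633 in fBM-MSCs alone at the threshold. The following windows are shown as examples of sites that hold motif letters at genes with sites in several lists, and other windows also held such letters (GRCm38, plus strand, 5′ to 3′, capitals mark the motif). In Aspn and Omd these are AP-1 (TGACTCA, the second match of Aspn being on the opposite strand), and in Fmod and Ogn RUNX (TGTGGT, on the opposite strand in Ogn).
Fmod intron, summit at +2273 (chr1:134039427-134039627): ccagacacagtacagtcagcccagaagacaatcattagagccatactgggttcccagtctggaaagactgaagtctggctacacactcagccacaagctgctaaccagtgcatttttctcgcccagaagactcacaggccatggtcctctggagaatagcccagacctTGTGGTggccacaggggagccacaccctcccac
Aspn intron, summit at +5406 (chr13:49549749-49549949): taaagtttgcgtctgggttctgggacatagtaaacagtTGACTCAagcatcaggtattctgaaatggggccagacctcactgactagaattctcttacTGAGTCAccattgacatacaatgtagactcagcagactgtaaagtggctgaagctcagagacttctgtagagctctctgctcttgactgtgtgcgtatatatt
Omd intron, summit at +1604 (chr13:49583966-49584166): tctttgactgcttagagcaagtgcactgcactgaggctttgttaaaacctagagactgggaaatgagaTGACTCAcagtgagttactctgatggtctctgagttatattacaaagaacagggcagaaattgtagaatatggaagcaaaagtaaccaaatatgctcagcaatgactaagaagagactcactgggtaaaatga
Ogn promoter, summit at -92 (chr13:49607823-49608023): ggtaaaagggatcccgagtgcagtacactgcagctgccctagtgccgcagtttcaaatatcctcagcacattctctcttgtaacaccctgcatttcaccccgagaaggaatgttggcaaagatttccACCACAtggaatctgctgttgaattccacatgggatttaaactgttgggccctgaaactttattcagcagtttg

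**Figure D4:**
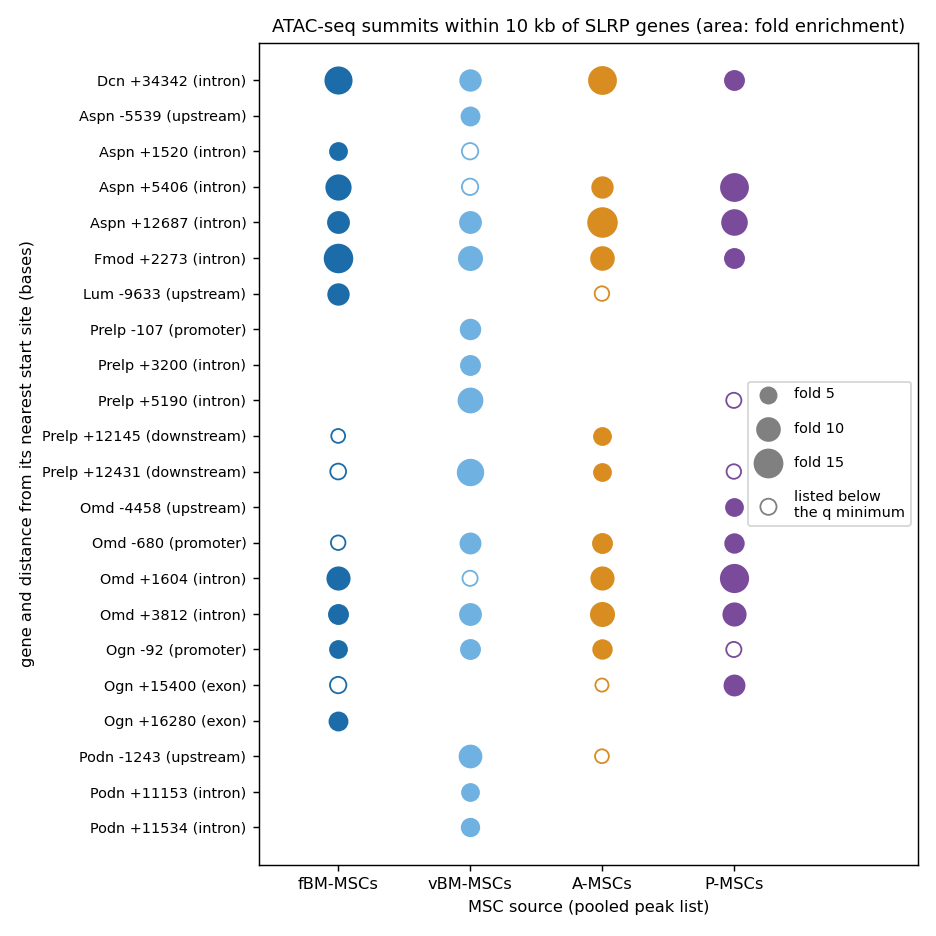
ATAC-seq sites within 10 kb of the SLRP genes (rows, with the distance in bases from the nearest start site) in the 4 pooled peak lists (columns), where the area of a symbol is the fold enrichment and open symbols are summits listed below the −log10 q of 7. At Podn all 3 sites, and at Prelp 3 of 5, pass that limit in the vBM-MSC list alone, while the sites of Fmod and Dcn and most sites of Omd pass it in 3 or 4 lists.

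Motif letters were counted on both strands in 20 such windows at Prelp, Fmod, Podn, Aspn, Omd and Ogn. AP-1 letters (TGACTCA) were in 7 of 20 windows, 6 of them among the 11 windows at Aspn, Omd and Ogn and 0 among the 5 at Prelp, while 20.3% to 28.7% of all summit windows of the 4 lists held them. RUNX letters (TGTGGT) were in 4 of 20 (16.8% to 22.1% of all windows), GATA letters (AGATAA) in 1 of 20 (5.94% to 9.01%) and TATA box letters (TATAAA) in 4 of 20 (7.40% to 8.12%). In the RefSeq promoters of GRCm38, 300 bases each, 7 members had 8 entries, of which 2 (Aspn and Ogn) held TATAAA, 1 (Ogn) TGTGGT, 1 (Fmod) AGATAA and 0 TGACTCA. Over all 32841 promoters these shares were 13.6%, 16.8%, 11.2% and 5.20%. The promoters of the class I members Aspn and Bgn were unlike in base composition, with 31.0% and 63.7% G and C.

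Genes that act with the SLRPs were described by lists chosen by function, against the same median of 0.03 over all genes in marrow versus non-marrow MSCs. Of all 12509 tested genes, 3096 (24.8%) were higher in marrow MSCs and 2805 were lower, which is the background for the counts of these lists and of the cell type markers. Of 13 tested collagens that SLRPs bind, 11 were higher in marrow MSCs and none was lower (median 1.06), for example Col3a1 (2.08 ± 0.21, adjusted p = 1.44e-05) and Col5a3 (3.60 ± 0.28, adjusted p = 1.88e-06). Col3a1 shared the low level of Prelp and Dcn in P-MSCs, at 5.68 ± 1.24 TPM against 53.4 ± 9.34 TPM in A-MSCs (SD, n = 3 each). Its mean of 39.5 TPM in fBM-MSCs was, however, below that of A-MSCs, and only the vBM-MSCs were higher (137.6 TPM). Of 20 tested genes for chondroitin and dermatan sulphate synthesis, 16 were higher and 1 lower (median 0.74), and the named examples were the chain-polymerising factor gene Chpf2 (0.99 ± 0.08, adjusted p = 3.23e-06) and the linker galactosyltransferase gene B4galt7 (0.65 ± 0.10, adjusted p = 0.00024). For keratan sulphate synthesis, 2 of 6 were higher and 1 lower (median -0.06), with B4galt1 at 0.21 ± 0.06 (adjusted p = 0.0143) and the sulphotransferase gene Chst2 at 1.55 ± 0.25 (adjusted p = 0.000374).

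Among 12 tested proteases and enhancers that process SLRPs, 5 were higher in marrow MSCs and 1 lower (median 0.45). Tll1, a tolloid protease of the family that matures procollagen and biglycan, was the lower one (-2.87 ± 0.22, adjusted p = 1.92e-06), at 72.9 ± 6.70 TPM in P-MSCs and 4.58 ± 1.94 TPM in fBM-MSCs (SD, n = 3 each). Pcolce, the procollagen C-proteinase enhancer, was higher (0.98 ± 0.08, adjusted p = 3.63e-06). Of 18 ligands and receptors of SLRPs, 9 were higher and 4 lower (median 0.45). Among them, Tgfb2 was higher in marrow MSCs (0.94 ± 0.14, adjusted p = 0.000232). Its mean level of 14.7 and 17.1 TPM in fBM-MSCs and vBM-MSCs was, however, near the 16.8 TPM of A-MSCs, and only the P-MSCs were low (4.07 TPM). Tgfb3 was not called between marrow and non-marrow MSCs (-0.03 ± 0.12, adjusted p = 0.866). It was lower in fBM-MSCs than in vBM-MSCs (-1.85 ± 0.18, adjusted p = 0.000177) and higher in A-MSCs than in P-MSCs (1.30 ± 0.17, adjusted p = 0.000285), the same order as for Dcn.

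Of 19 tested other proteoglycans, 11 were higher and 2 lower (median 1.14). The syndecan gene Sdc2 was higher in marrow MSCs (1.22 ± 0.08, adjusted p = 6.31e-07), whereas Sdc4 was not called there (0.11 ± 0.14, adjusted p = 0.536) and was lower in fBM-MSCs than in vBM-MSCs (-2.61 ± 0.21, adjusted p = 4.83e-05). Of the 9 SLRP relatives that are not members, 4 passed the filter, and 2 of these were higher in marrow MSCs, Podnl1 (1.98 ± 0.74, adjusted p = 0.045) and Ecm2 (6.68 ± 1.63, adjusted p = 0.00759). For Podnl1, the vBM-MSCs (0 and 2.71 TPM) spanned the A-MSCs (0.58 to 0.77 TPM) and P-MSCs (0.47 to 1.53 TPM), and only the fBM-MSCs (2.46 to 10.84 TPM) were above both. Ecm2 did not exceed 1.27 TPM, was at 0 in every A-MSC library and at most 0.01 TPM in P-MSCs, and passed the filter through marrow libraries, so its difference was built into the filter as well. Tsku (0.19 ± 0.17, adjusted p = 0.389) and Chadl (1.41 ± 0.57, adjusted p = 0.0613) were not called.

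Markers of other cell types were read beside the members for the same comparison. Of 9 MSC markers, 5 were higher in marrow MSCs and 2 lower, with Ly6a at 2.72 ± 0.18 (adjusted p = 5.74e-07) and Pdgfrb at 1.22 ± 0.10 (adjusted p = 2.53e-06). The chondrocyte list had 3 of 4 tested genes higher, among them Sox9 (1.08 ± 0.17, adjusted p = 0.000335), and 1 lower. Sox9 was, however, at 9.48 TPM in A-MSCs and 7.86 TPM in fBM-MSCs on average, and only the P-MSCs were low (2.22 TPM). The tendon list had 3 of 3 tested genes higher. Smooth muscle markers were lower in 5 of 6 and higher in none, with summed levels of 1071 to 1466 TPM in fBM-MSCs, 6187 and 7709 TPM in vBM-MSCs, 12319 to 12905 TPM in A-MSCs and 4514 to 5239 TPM in P-MSCs. Among them, Des was lower in marrow MSCs by a log2 fold change of -5.12 ± 0.24 (adjusted p = 8.79e-08) and Acta2 differed between the marrow tissues by -2.66 ± 0.16 (adjusted p = 7.57e-06). Mesothelial markers were lower in 4 of 6, with Wt1 at 0 outside the A-MSCs and Upk3b at most 0.18 TPM there, and epithelial markers in 2 of 2 (Krt8 and Krt18). Wt1, Upk3b and Krt8 (at most 0.24 TPM outside the A-MSCs) passed the filter through A-MSC libraries, so a higher level in A-MSCs was built into the filter. Endothelial markers were lower in 3 of 4, with summed levels of at most 1.20 TPM in marrow MSCs and 2.60 to 8.30 TPM in P-MSCs. Replicate 1 of the A-MSCs stood apart at 55.3 TPM against 7.60 and 3.40 TPM, most of it Emcn (up to 49.5 TPM). Cdh5 and Kdr did not exceed 1.05 and 2.84 TPM in any library. Of 5 macrophage markers, 2 were higher, among them Lyz2 (2.65 ± 0.26, adjusted p = 9.31e-06), and 1 was lower, Csf1r (-2.24 ± 0.24, adjusted p = 1.75e-05). Of 3 adipocyte markers, 2 were higher, Fabp4 (1.16 ± 0.37, adjusted p = 0.0222) and Pparg (0.97 ± 0.28, adjusted p = 0.0153). The list summed to 46.5 to 163 TPM in A-MSCs, 27.2 to 77.0 TPM in marrow MSCs and 4.90 to 6.80 TPM in P-MSCs, so the marrow libraries were above all P-MSC libraries and overlapped with the A-MSCs. Several genes, such as Col1a1, Kera, Kdr, Krt8 and Acan, stood in more than 1 list, and the part of these cells in the SLRP levels was not tested either.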

How the data were processed

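RNA-seq used Smart-seq2 libraries, which keep no strand. The authors aligned reads with STAR inside RSEM to mm10 and deposited, per gene and library, the expected count (not normalized), the TPM and the FPKM. For ATAC-seq, the authors used TrimGalore, Bowtie, Picard, a Tn5 shift and MACS2 without a model or local background, on pooled reads. Per the file headers, the deposited lists give each summit's fold enrichment as a ratio, and its −log10 p and −log10 q. Tool versions of these steps are not given in the sources used here. The third vBM-MSC RNA-seq library was not analysed here.

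Expected counts were rounded and fitted with edgeR 4.0.16 in R 4.3.3 (TMM, quasi-likelihood F test, two-sided, Benjamini-Hochberg adjusted p under 0.05), in 1 model of 4 tissues over 11 libraries. The 12509 genes tested had 2 or more libraries with a CPM of 1 or higher. The median biological coefficient of variation was 21.1%. On simulated data of 12215 genes for marrow against non-marrow, 73% of genes changed by 1 log2 unit and 100% of those changed by 3 were recovered, and 3.35% of calls were false. The changed genes were drawn only from those with more counts, and the simulated spread followed the trend over all genes. These shares therefore do not carry over to members with few counts outside the marrow or with a single outlying library. Alternatives were DESeq2 1.42.0, RLE scaling, limma 3.58.1 on log2(TPM + 1) and log2(TPM + 0.1), other filters, fewer libraries and a replicate block. Levels are TPM, with FPKM used only as an alternative for the summed level.

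Summits with a −log10 q of at least 7 within 10 kb of a gene were assigned to RefSeq transcripts of GRCm38, the assembly behind mm10, and summits within 250 bases of each other were joined to 1 site. Python 3.11.15, pandas 2.3.3, numpy 2.4.6 and matplotlib 3.10.9 were used.

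The members and all gene lists were chosen with earlier results of these data known. Named genes are the 9 members with every library, the 2 genes of each list with the lowest adjusted p among the 4 tissues, every tested SLRP relative, and the 2 tested genes most correlated with each member. Genes named beyond this rule (Itgb1, Cd44, Ptprc, Pdgfra, Nt5e, Alpl, Bglap, Sp7, Col1a1, Col2a1, Scx, Emcn, Acan and Kera) were chosen after their values were seen.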

Additional observations from a re-analysis of the deposited data

How the results depend on the processing

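Most member calls kept their side of the threshold. Restricted to the 2 tissues compared, the count for fBM-MSCs against A-MSCs was 3 in place of 5, and the count of all genes called between the marrow tissues was 305 in place of 1601, with fewer libraries in the fit. Leaving out 1 library gave 8 to 9 members among the 4 tissues, 7 to 8 for marrow against non-marrow, 3 to 5 for fBM-MSCs against vBM-MSCs, 3 to 6 for A-MSCs against P-MSCs, 3 to 5 for fBM-MSCs against A-MSCs, 5 to 7 for fBM-MSCs against P-MSCs, 6 to 9 for vBM-MSCs against A-MSCs and 8 to 9 for vBM-MSCs against P-MSCs. Leaving out replicate 3 of the fBM-MSCs and replicate 2 of the vBM-MSCs together, chosen after seeing the data, gave 7 for marrow against non-marrow and 8 among the 4 tissues.

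The alternatives were run for 22 fold changes, and of these the ones that turned direction were not called as reported. Dcn in marrow against non-marrow was -0.07 to 0.72 with 1 library left out and -0.15 without both of these libraries. Dcn in vBM-MSCs against A-MSCs was -0.15 to 1.44, the latter called (adjusted p = 0.04, without replicate 1 of the vBM-MSCs), and -0.15 without both. Fmod in fBM-MSCs against vBM-MSCs was -0.10 with limma at either pseudocount, -0.46 with the replicate block, -0.63 to 0.93 with 1 library left out and -0.49 without both. The cause was not tested. The log2 ratio of the summed level was 0.67 to 0.97 with 1 library left out and 0.81 with FPKM. With DESeq2, Aspn was not called among the 4 tissues (adjusted p = 0.0561), for fBM-MSCs against P-MSCs (adjusted p = 0.148) or for vBM-MSCs against A-MSCs (adjusted p = 0.0649), while Podn was called in A-MSCs against P-MSCs (adjusted p = 0.0357), and Lum received no adjusted p. With RLE scaling, Bgn was not called between the marrow tissues (adjusted p = 0.0538).

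Same-numbered libraries did not deviate together in every pair (r of -0.0279 to 0.125), so the numbers were not used to pair libraries, and whether they mark a mouse is not known. With the replicate block, 8 members differed among the 4 tissues, 5 between fBM-MSCs and P-MSCs and 5 between fBM-MSCs and vBM-MSCs. The block ended the edgeR calls of Lum among the 4 tissues (adjusted p = 0.0542) and of Aspn in fBM-MSCs against P-MSCs (adjusted p = 0.0547). The ATAC-seq count of 43 summits over the 4 lists was 12 at a −log10 q of at least 20, 81 with all deposited summits and 133 within 50 kb. At a −log10 q of at least 20 each list had 3 summits, so the higher count of the vBM-MSC list did not hold. The sites of Podn, with a −log10 q of at most 17.52, dropped out. The members with a promoter summit, 1, 3, 2 and 1 in fBM-MSCs, vBM-MSCs, A-MSCs and P-MSCs, numbered 0 in every list at a −log10 q of at least 20, 3, 5, 4 and 3 with all deposited summits, and 4, 5, 3 and 2 within 2.5 kb of a start site. The depth limits Aspn, Lum, Omd and Podn outside the marrow, where many libraries held under 50 expected counts, and with 2 vBM-MSC libraries a single library can decide a value.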
